A study of Mus musculus with 6 samples.

Results

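The 9 genes described here, Acp4, Fam20a, Fam20c, Fam83h, Wdr72, Relt, Itgb6, Tuft1 and Slc10a7, act in enamel formation without being structural proteins of the enamel matrix. They were taken by symbol from a named list, and all 9 were found among the 24959 genes of the count table. RNA sequencing was done on 6 libraries labelled as mouse dental epithelial cells at postnatal day 0. There were 3 control libraries of genotype WT and 3 libraries of genotype PKM knockout, titled cKO (conditional knockout) and called Pkm cKO here. The targeted gene, Pkm, encodes the muscle-type pyruvate kinases of glycolysis. The Cre driver, the deleted exon, the strain, the sex and the tooth type are not given in the labels, nor is whether a sample came from 1 animal or from several. The labels call the samples biological replicates without saying more, so the p-values reflect only the spread among these samples, part of which may be technical.

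Enamel is laid down by ameloblasts, tall epithelial cells that first secrete a protein-rich matrix (the secretory stage) and later remove it while mineral fills the space (the maturation stage). Mutations that disturb either stage cause amelogenesis imperfecta, a group of inherited enamel defects. Some of the genes behind it encode the matrix proteins and the proteases that digest them. Others encode the machinery of the cell: FAM20C is a kinase of the secretory pathway that phosphorylates matrix proteins, and FAM20A is a pseudokinase that binds FAM20C and raises its activity. ACP4 is a membrane-bound acid phosphatase, RELT a receptor of the tumor necrosis factor receptor superfamily and ITGB6 the beta subunit of an epithelial integrin. WDR72 acts in vesicle traffic of maturing ameloblasts, FAM83H is a cytoplasmic scaffold that binds casein kinase 1, and SLC10A7 is a membrane protein needed for normal bone and enamel. Tuftelin, the product of Tuft1, was once described as an enamel matrix protein and is also made in many other tissues.

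Total counts were 30588350 to 39415700 per library, and all 9 genes were among the 15930 with enough reads to be tested. Pkm, which checks the labels, stood at 1049 to 1281 CPM (reads per 1000000 reads of a library after scaling) in the controls, against 309 to 395 CPM in the cKO group. Markers of epithelium were abundant in every library, with a summed level of 16127 to 18321 CPM over 10 markers in controls and 12174 to 13859 CPM in cKO libraries. Of these 10, 7 had a log2 fold change below 0, and Krt14, Krt5, Cdh1 and Trp63 had groups that did not overlap. Mesenchymal markers were abundant too, at 20104 to 31749 CPM over 13 markers in controls and 18789 to 40665 CPM in cKO libraries. Of those 13, 11 were above 0 in log2 fold change. The other 2, Col1a1 and Col1a2, made up most of that sum in every library. The 10 immune markers, all above 0, summed to 65.4 to 68.2 CPM in controls and to 117 to 201 CPM in the cKO group. The 8 skeletal muscle markers summed to 3.99 to 5.15 CPM in controls and to 80.9, 18.0 and 3214 CPM in cKO replicates 1 to 3. All 8 were above 0 in log2 fold change, and Myh3, a myosin of embryonic muscle, was at 0 in 1 control library. Pkm cKO replicate 3 also held 850 CPM of the keratin gene Krt15, against 16.6 to 40.1 CPM elsewhere. Without it the log2 fold changes of the 6 members under -0.5 were smaller in size, from -2.41 for Acp4 to -0.47 for Wdr72. Relt stood at -1.08 and Itgb6 at -0.80. By edgeR's test 0 members then passed, but 5 had an unadjusted p under 0.05, against 3 with all libraries. These 5 were Acp4, Itgb6, Relt and Fam20c, all lower, and Fam83h, which was higher (log2 fold change 0.40). Among all genes, 2980 of 16230 had such a p without Pkm cKO replicate 3. The odontoblast and osteoblast markers, 8 genes of the mesenchymal cells that make dentin and bone, summed to 5460, 4551 and 2579 CPM in control replicates 1 to 3 and to 3891, 1228 and 519 CPM in cKO replicates 1 to 3. Of the 8, 4 were below 0 in log2 fold change. Erythroid markers summed to 574 to 801 CPM in controls and to 267 to 353 CPM in the cKO group. All 5 that could be tested had groups without overlap on the lower side, and 3 globin genes, Hbb-bt, Hbb-bs and Hba-a1, passed edgeR's test. The part of these differences in cell content in the results below was not tested. In bulk samples, fewer cells of a type and less RNA per cell cannot be told apart.

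Of the 9 genes, 7 averaged lower in the cKO libraries, 6 of them with a log2 fold change under -0.5. Tuft1, Slc10a7 and Fam83h differed less, and the spread between libraries was wide. The log2 fold change (cKO minus control) ran from -2.86 for Acp4 to 0.26 for Fam83h, with a median of -0.87 against 0.01 over all tested genes. No member passed edgeR's quasi-likelihood test at an adjusted p under 0.05, whereas 0.552% of all tested genes did, 0.207% lower and 0.345% higher in cKO libraries. At an unadjusted p under 0.05 stood 3 members, Itgb6, Acp4 and Relt, all lower, against 7.9% of all genes on the lower side and 17.5% in either direction. Limma-voom also called 0 members. DESeq2 called 3 members, all lower, with adjusted p of 0.0173 for Acp4, 0.0118 for Relt and 0.0185 for Itgb6. It also called more of all genes, 6.62% of the 17040 with an adjusted p, or 2.39% counting only the lower side. Without Pkm cKO replicate 1, edgeR called 2 members, Acp4 and Itgb6, and 3.92% of all genes, or 1.98% counting only the lower side. With the replicate number as a block in the model, edgeR called 4 members, all lower. It then called 4.44% of all genes, or 2.19% counting only the lower side. The labels do not say whether same-numbered samples belong together. The groups did not overlap for Acp4 and Itgb6, both lower. Groups without overlap were found for 12.2% of all tested genes on the lower side, 11.2% on the higher side and 23.3% in all. The count of 2 in 9, with none on the higher side, is close to the share in all genes over both sides.

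**Figure D1:**
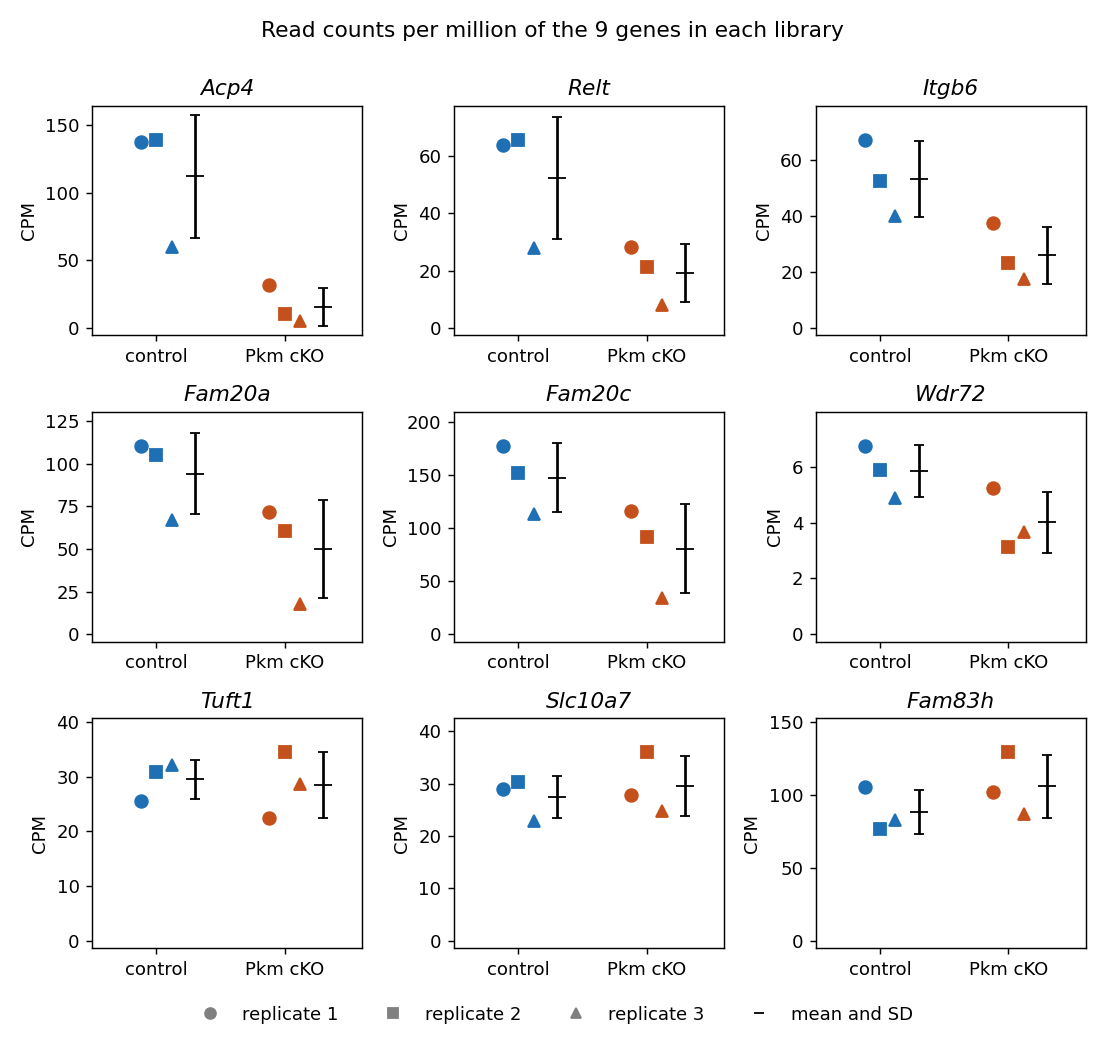
Scaled read counts (CPM, y axis, linear and different in each panel) of the 9 genes in 3 control (blue) and 3 Pkm cKO (orange) libraries, with marker shapes for replicate numbers and black bars for the group mean and SD. Acp4 and Itgb6 have groups that do not overlap, control replicate 3 and Pkm cKO replicate 1 lie close together for Relt, Fam20a and Fam20c, and the groups of Fam83h, Tuft1 and Slc10a7 overlap.

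Acp4, the acid phosphatase gene, had the largest difference of the 9. It measured 137, 139 and 59.4 CPM in control replicates 1 to 3 and 31.6, 10.2 and 4.67 CPM in cKO replicates 1 to 3. Every control was higher than every cKO library, and the lowest control was 1.88 times the highest cKO library. The libraries of 1 group differed as well, 2.34 times from highest to lowest in controls and 6.77 times in the cKO group. The fitted log2 fold change was -2.86 (SE 0.843, 95% interval -5.04 to -0.68), which is 7.25 times lower, with an edgeR adjusted p of 0.201. Leaving out Pkm cKO replicate 1 gave a log2 fold change of -3.92 and an edgeR adjusted p of 0.0324, and the range over all 14 alternatives was 0.0173 to 0.562. An exon of 2410002F23Rik, a gene on the opposite strand, covers 9.83% of the exonic length of Acp4 in the GENCODE M21 models, and whether counting used strand is not given in the sources used here. That gene stood at 121 ± 11.1 CPM in the controls, against 138 ± 16.5 CPM in the cKO group (SD, n = 3 each).

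Acp4 was also set against Amelx, the amelogenin gene of the secretory stage, within each library, a ratio picked, like the other ratios between genes given here, after the values were seen. Per 1000 CPM of Amelx, Acp4 stood at 7.37, 8.92 and 6.93 CPM in the controls, against 7.64, 29.7 and 38.2 CPM in the cKO group. Pkm cKO replicate 1 thus had a ratio inside the control range, while in replicates 2 and 3 Amelx was further below the controls than Acp4 was. The difference of the log2 ratios was 1.42, with an exact two-sided permutation p of 0.2, and 0.1 is the smallest p that 3 against 3 libraries can give. No such ratio can therefore pass 0.05, before or after adjustment over the 8 ratios between genes that were computed.

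The kinase pair came next in level per exon length in the controls. Fam20c, the secretory pathway kinase, stood at 177, 152 and 113 CPM in the controls, against 116, 91.8 and 33.9 CPM in the cKO group. Control replicate 3 was just under Pkm cKO replicate 1, so the groups overlapped by those 2 libraries alone. The log2 fold change was -0.87 (SE 0.441, 95% interval -1.93 to 0.19, edgeR adjusted p 0.369). Fam20a, the pseudokinase partner, stood at 110, 105 and 67.1 CPM in the controls, against 71.9, 60.8 and 17.6 CPM in the cKO group. Again control replicate 3 lay below Pkm cKO replicate 1 and above the other 2 cKO libraries. The log2 fold change was -0.91 (SE 0.525, 95% interval -2.20 to 0.38, edgeR adjusted p 0.439). Pkm cKO replicate 3 carried much of both differences: without it the log2 fold change was -0.49 for Fam20c and -0.50 for Fam20a. The SE fell as well, to 0.209 and 0.222, and the edgeR adjusted p was 0.250 and 0.275.

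The pair kept nearly the same proportion in every library. The ratio of Fam20a to Fam20c CPM was 0.623, 0.692 and 0.593 in controls and 0.620, 0.662 and 0.518 in cKO libraries (exact two-sided permutation p 0.6). Likeness over libraries was measured as the root mean square difference of log2 CPM after each gene was centred on its own mean, over the 6 libraries. By this measure the gene closest to Fam20a among 11180 protein-coding genes of at least 5 CPM was Fam20c, and the gene closest to Fam20c was Fam20a (0.131). Their own deviations over the 6 libraries were 0.878 and 0.770 by the same measure. The next closest pair of members was Fam83h and Slc10a7 (0.194), which deviated far less themselves (0.253 and 0.208).

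Promoter sequences are shown for this pair, for Acp4 as the gene with the largest difference, and for Slc10a7 as one with none to be seen. They are the 250 bases before the annotated start, 5′ to 3′ on the strand of the gene, from RefSeq on build GRCm38.p6, which is not the build of the counts. The table held 6 of the 9 genes, and Fam83h, Wdr72 and Tuft1 are not shown. The windows are Acp4 (chr7:44257205-44257454, minus strand), Fam20a (chr11:109722239-109722488, minus strand), Fam20c (chr5:138754831-138755080, plus strand) and Slc10a7 (chr8:78509078-78509327, plus strand). Capitals mark matches, on either strand, to any of 6 short motifs: the TATA box TATAAA, the CCAAT box CCAAT, the GC box GGGCGG, the E-box CACGTG, and the homeobox motifs TAATCC (Pitx type) and TAATTA (Msx and Dlx type).
Acp4: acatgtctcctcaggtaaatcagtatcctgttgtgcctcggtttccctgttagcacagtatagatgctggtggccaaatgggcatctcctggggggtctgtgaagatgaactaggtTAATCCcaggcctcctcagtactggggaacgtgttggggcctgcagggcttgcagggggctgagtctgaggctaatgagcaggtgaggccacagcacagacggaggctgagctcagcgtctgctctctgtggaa
Fam20a: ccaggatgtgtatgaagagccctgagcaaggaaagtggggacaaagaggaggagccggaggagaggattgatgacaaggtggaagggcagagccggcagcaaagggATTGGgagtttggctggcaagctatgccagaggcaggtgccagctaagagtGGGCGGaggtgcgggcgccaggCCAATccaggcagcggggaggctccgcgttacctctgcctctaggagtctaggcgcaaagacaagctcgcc
Fam20c: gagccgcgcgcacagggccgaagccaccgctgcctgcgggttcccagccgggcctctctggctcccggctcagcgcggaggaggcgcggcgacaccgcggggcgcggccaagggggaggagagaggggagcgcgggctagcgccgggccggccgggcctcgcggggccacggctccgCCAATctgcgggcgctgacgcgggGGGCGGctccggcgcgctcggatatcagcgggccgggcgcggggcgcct
Slc10a7: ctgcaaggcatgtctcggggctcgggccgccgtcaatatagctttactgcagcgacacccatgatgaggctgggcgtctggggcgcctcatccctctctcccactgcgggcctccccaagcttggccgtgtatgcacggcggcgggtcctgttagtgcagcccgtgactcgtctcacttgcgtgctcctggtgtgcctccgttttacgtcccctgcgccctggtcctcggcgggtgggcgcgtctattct

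Fam20a and Fam20c each held a CCAAT box and a GC box, a combination found in 11% of 32851 mouse windows of this length. The CCAAT match nearest the start began 71 bases before it in Fam20a and 73 bases before it in Fam20c. Fam20a held a further CCAAT match in reverse orientation, 144 bases before the start. The GC box began 93 bases before the start in Fam20a and 49 bases before it in Fam20c. Singly, CCAAT stood in 33.8% of all windows and GGGCGG in 32.7%. Acp4 held the Pitx-type letters TAATCC, 134 bases before the start, as did 6.25% of windows. Relt, whose window is not printed, held a GC box 46 bases before the start. The windows of Slc10a7 and of both annotated starts of Itgb6 held none of the 6 motifs. TATAAA (12.4% of windows), CACGTG (6.02%) and TAATTA (4.84%) were in none of the 6 genes. The windows ranged in GC content from 38% at the downstream start of Itgb6 to 81.2% for Fam20c, against a median of 52.4%. A match of letters describes the window and is not evidence of a bound site.

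Of the receptors, Itgb6 had the lowest p of the 9. The integrin subunit gene stood at 67.4, 52.7 and 40.0 CPM in the controls, against 37.3, 23.3 and 17.4 CPM in the cKO group. The groups did not overlap, but the lowest control was only 1.07 times the highest cKO library. The log2 fold change was -1.04 (SE 0.296, 95% interval -1.70 to -0.37), which is 2.05 times lower, with an edgeR adjusted p of 0.129. Without Pkm cKO replicate 1 the log2 fold change was -1.40 and the edgeR adjusted p 0.0285, within a range of 0.00900 to 0.463 over the 14 alternatives.

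Itgb6 pairs only with the alpha subunit encoded by Itgav. Itgav stood at 161, 152 and 140 CPM in the controls, against 140, 102 and 143 CPM in the cKO group, and the groups overlapped. The ratio of Itgb6 to Itgav was 0.417, 0.346 and 0.286 in controls and 0.267, 0.229 and 0.122 in cKO libraries. These ratios did not overlap (exact two-sided permutation p 0.1, the smallest possible). Among Itgav, the other beta subunit genes Itgb1, Itgb3, Itgb5 and Itgb8, and the transforming growth factor beta genes Tgfb1, Tgfb2 and Tgfb3 with Ltbp1, 0 of 9 passed edgeR's test, with 2 at an unadjusted p under 0.05, against 17.5% of all genes. The genes of lowest p were Itgb3 (log2 fold change 1.15), Ltbp1 (0.63), Tgfb2 (-0.41) and Itgb1 (-0.28). None of the 9 had groups that did not overlap.

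Relt, the receptor gene, stood at 63.7, 65.7 and 27.8 CPM in the controls, against 28.0, 21.3 and 8.09 CPM in the cKO group. Control replicate 3 was level with Pkm cKO replicate 1, and the other libraries of each group were clearly apart. The log2 fold change was -1.45 (SE 0.525, 95% interval -2.72 to -0.19), which is 2.74 times lower, with an edgeR adjusted p of 0.235. Its relatives and the kinases it binds gave smaller values. Of Rell1, Rell2, Oxsr1 and Stk39, 0 of 4 passed edgeR's test. Only 1, Rell1, was at an unadjusted p under 0.05, against 17.5% of all tested genes. Rell1 stood at 121, 96.2 and 125 CPM in the controls, against 93.9, 78.4 and 80.2 CPM in the cKO group. Stk39 (log2 fold change 0.41), Oxsr1 (-0.08) and Rell2 (0.13) had groups that overlapped.

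Wdr72 had the fewest reads of the 9, with 108 to 248 reads per library. It measured 6.75, 5.90 and 4.88 CPM in the controls, against 5.23, 3.14 and 3.65 CPM in the cKO group. Pkm cKO replicate 1 lay inside the control range and the other 2 cKO libraries below it. The log2 fold change was -0.55 (SE 0.317, 95% interval -1.25 to 0.16, edgeR adjusted p 0.408). WDR72 is a relative of WDR7, which with DMXL proteins and ROGDI assists the proton pump of vesicles, the V-ATPase. All 12 listed genes of that complex and pump averaged lower in the cKO libraries, and their median log2 fold change was -0.33. For 9 of the 12 the groups did not overlap on the lower side, against 12.2% of all tested genes. However, 0 of 12 passed edgeR's test, and 4 had an unadjusted p under 0.05, against 17.5% of all tested genes.

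Rogdi, itself a gene of a syndrome with amelogenesis imperfecta, had the lowest p of that list. It measured 63.0, 56.0 and 40.8 CPM in the controls, against 27.3, 26.3 and 15.5 CPM in the cKO group (log2 fold change -1.21, SE 0.252, edgeR adjusted p 0.0699). The pump subunit genes Atp6v1h (-0.45), Atp6v1a (-0.37) and Atp6v1b2 (-0.35) came next, with smaller differences. The level of epithelial markers was lower in the cKO libraries as well, and its part in these values was not tested.

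The other 3 members had smaller differences, with groups that overlapped. Fam83h, the casein kinase 1 scaffold, stood at 105, 76.2 and 82.8 CPM in the controls, against 102, 129 and 86.5 CPM in the cKO group. The highest value was that of Pkm cKO replicate 2, and the groups overlapped (log2 fold change 0.26, SE 0.190, 95% interval -0.16 to 0.69, edgeR adjusted p 0.514). Slc10a7, the membrane protein gene, stood at 29.1, 30.3 and 22.9 CPM in the controls, against 27.8, 36.0 and 24.8 CPM in the cKO group (log2 fold change 0.11, SE 0.203, 95% interval -0.35 to 0.56, edgeR adjusted p 0.828). Tuft1, the tuftelin gene, stood at 25.5, 30.9 and 32.1 CPM in the controls, against 22.4, 34.4 and 28.7 CPM in the cKO group (log2 fold change -0.05, SE 0.204, 95% interval -0.50 to 0.41, edgeR adjusted p 0.929). All 3 intervals include 0, and differences inside them could not be told from none here. Fam83h ran from 0.10 without Pkm cKO replicate 2 to 0.41 without control replicate 1, and Tuft1 and Slc10a7 changed sign with 1 library left out.

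Relatives of these genes were measured too. Of the other FAM83 genes and the casein kinase 1 genes Csnk1a1, Csnk1d and Csnk1e, 8 of 10 could be tested and 0 passed edgeR's test. At an unadjusted p under 0.05 stood 2 of the 8, against 17.5% of all tested genes. These 2 were Fam83c (log2 fold change 1.02, at 2.80 to 9.04 CPM) and Fam83g (-0.54). Csnk1a1 (-0.23) and Csnk1d (0.20) had groups that did not overlap, at small differences and edgeR adjusted p of 0.455 and 0.498. Tfip11, which encodes a splicing protein first found as a tuftelin partner, had a log2 fold change of 0.28 with overlapping groups. In the SLC10 family 2 of 6 genes could be tested, Slc10a6 (2.43, at most 2.23 CPM in any library) and Slc10a3 (0.24). By edgeR 0 passed, and Slc10a6 had an unadjusted p under 0.05, as did 17.5% of all tested genes.

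**Figure D2:**
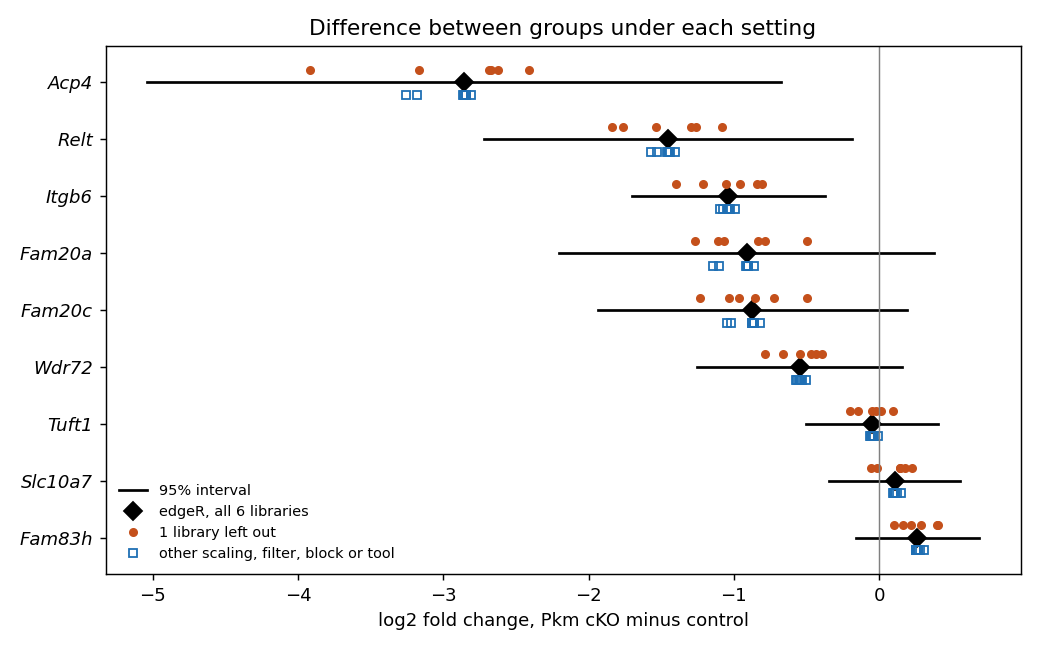
Log2 fold change of each gene (x axis, Pkm cKO minus control). Black diamonds and lines are edgeR values and 95% intervals from all 6 libraries, orange points leave out 1 library each, and open blue squares use another scaling, filter, block or tool. The intervals of Acp4, Relt and Itgb6 lie below 0, and the points of Tuft1 and Slc10a7 fall on both sides of 0.

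The 2 sets of genes could be set against each other within a library, where scaling plays no part. The ratio of Fam83h to Fam20c CPM, chosen after the values were seen, was 0.594, 0.503 and 0.732 in controls and 0.879, 1.41 and 2.55 in cKO libraries. The groups did not overlap (exact two-sided permutation p 0.1, the smallest possible). The ratio of Slc10a7 to Fam20c was 0.164, 0.200 and 0.203 in controls and 0.240, 0.392 and 0.731 in cKO libraries, also without overlap. That of Tuft1 to Fam20c overlapped, at 0.144, 0.203 and 0.284 against 0.193, 0.375 and 0.847. Each of these ratios was highest in Pkm cKO replicate 3, the library with the lowest Fam20c and with the muscle markers.

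The libraries of 1 group differed in the same way for most members. Among controls, replicate 3 was the lowest for 7 of the 9 genes, and among cKO libraries replicate 3 was the lowest for 7 of the 9. The 7 were not all the same genes: Wdr72 was among them only in controls and Fam83h only in cKO libraries. The share of all tested genes with this order is not given here. Pkm cKO replicate 1 was the highest of its group for 6. Amelx had 18617, 15596 and 8564 CPM in the controls, against 4136, 343 and 122 CPM in the cKO group, so the same libraries were high and low. Dspp, the dentin matrix gene of odontoblasts, which are mesenchymal, also had its lowest value of each group in replicate 3 (1912 and 112 CPM). By the root mean square measure above, Acp4 was closer to Dspp (0.687) than to Amelx (1.02). That measure counts the size of the swings as well as their order. Centred on its mean, Amelx ran from 2.76 to -4.49 in log2 CPM, against 2.01 to -2.89 for Acp4. The groups of Dspp overlapped, whereas those of Acp4 and Amelx did not.

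**Figure D3:**
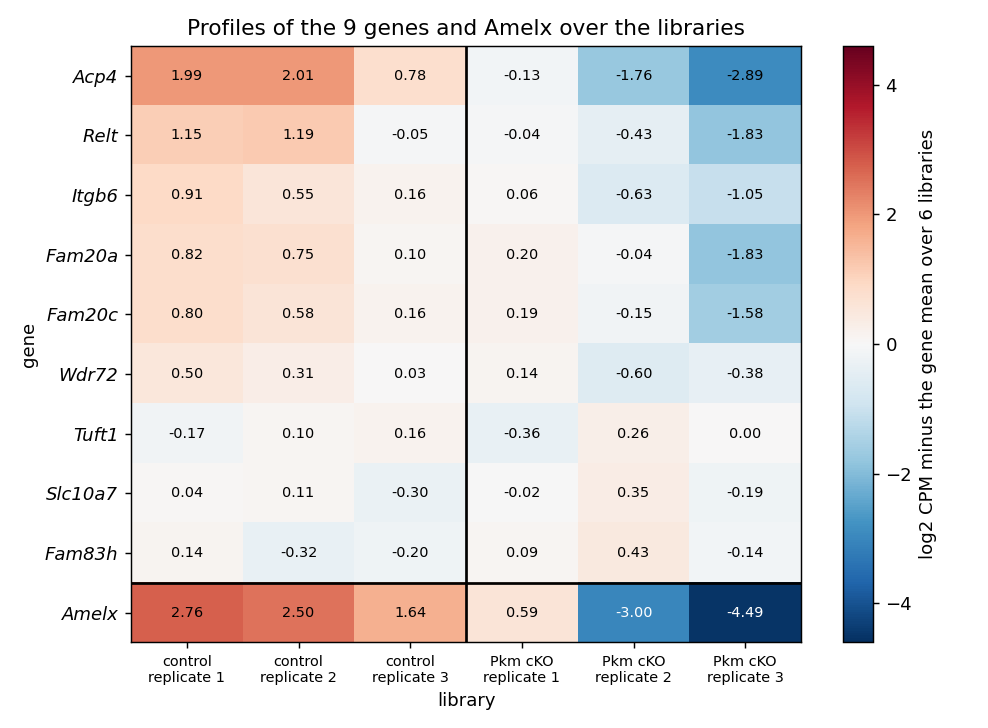
Each cell gives the log2 CPM of a gene (rows, the 9 genes and Amelx below the line) in a library (columns, controls left and Pkm cKO right of the line) minus the mean of that gene over the 6 libraries, red above and blue below the mean. Acp4 runs from 2.01 to -2.89, Fam20a and Fam20c have nearly the same row, and Tuft1, Slc10a7 and Fam83h stay within 0.44 of their means.

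Genes closest in profile to the other members were found by the same root mean square measure. Acp4 was closest to Gal3st4 (0.256), Ambn (0.275), which encodes the matrix protein ameloblastin, and Fxyd4 (0.304). Relt was closest to Plekhh1 (0.173), Kcnh3 (0.212) and Rtn4ip1 (0.252), and Itgb6 to Cd24a (0.0623), F2r (0.0855) and Slc41a3 (0.0911). After its partner, Fam20a was closest to Bcan (0.158) and Bmp8a (0.184), and Fam20c to Cdh23 (0.137) and Cdk18 (0.146). Wdr72 lay near Gnaq, Rab23 and R3hcc1l (0.0381 to 0.0578), Fam83h near Nckap5l, Tmem216 and Tsfm (0.0658 to 0.0741), Tuft1 near Mecr, Rara and Ocln (0.0282 to 0.0674) and Slc10a7 near Mars1, Tincr and Tufm (0.0407 to 0.0523). Genes that vary little have many close neighbours, so the small values of the last 4 say little.

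Levels of different genes were compared per kilobase of exons, with lengths from the GENCODE M21 models on GRCm38, which may differ from the annotation used for counting. In controls Acp4 came first with 64.0 ± 26.0 CPM per kilobase (SD, n = 3), and its range did not overlap that of Fam20a at 25.9 ± 6.50. Fam20a, Fam20c (22.4 ± 4.90), Fam83h (19.1 ± 3.30), Relt (16.0 ± 6.50), Tuft1 (9.46 ± 1.13) and Itgb6 (7.50 ± 1.93) followed, each overlapping with the next. Slc10a7 (2.91 ± 0.419) and Wdr72 (0.781 ± 0.125) stood apart below them. All were far under the level of Amelx, 14273 ± 5163 CPM per kilobase, and of Krt14, 1540 ± 300.1.

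In the cKO libraries the order was different at the top. Fam83h came first with 22.9 ± 4.66 CPM per kilobase (SD, n = 3), overlapping with Fam20a (13.8 ± 7.90), and Acp4 was the fifth with 8.85 ± 8.13. Tuft1 (9.15 ± 1.93) stood between Fam20c (12.2 ± 6.40) and Acp4. Relt (5.84 ± 3.09), Itgb6 (3.65 ± 1.44) and Slc10a7 (3.13 ± 0.615) followed with overlapping ranges, and Wdr72 was again the lowest with 0.535 ± 0.146.

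Since the epithelial markers were lower in the cKO libraries, each member was also divided by their sum. Krt15 is 1 of the 10 markers, and its 850 CPM in Pkm cKO replicate 3 are part of the sum of 13402 CPM there. This lowers every ratio of that library somewhat. The log2 mean of the sum differed by -0.39 between the groups, so this division moves every gene up by that amount. On this scale the groups of 2.03% of all genes were without overlap on the lower side and those of 37.2% on the higher side. Per 1000 CPM of the 10 markers, Acp4 stood at 7.49, 8.63 and 3.47 CPM in the controls, against 2.59, 0.736 and 0.348 CPM in the cKO group. The groups did not overlap here either, and the mean log2 ratio differed by -2.80 (exact two-sided permutation p 0.1, the smallest possible). Such differences of mean log2 ratios are another measure than the log2 fold changes fitted by edgeR, so the 2 are not directly comparable. For Itgb6 the ratios were 3.68, 3.27 and 2.34 in controls and 3.07, 1.68 and 1.30 in cKO libraries, which overlapped (log2 difference -0.69, exact p 0.2). Relt (-1.14), Fam20a (-0.73), Fam20c (-0.64) and Wdr72 (-0.18) overlapped too.

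Fam83h was the other member whose groups did not overlap on this scale, on the higher side, where 37.2% of all genes stood. Fam83h measured 5.75, 4.73 and 4.84 CPM per 1000 CPM of markers in the controls, against 8.37, 9.31 and 6.46 CPM in the cKO group (log2 difference 0.64, exact two-sided permutation p 0.1). The differences of Slc10a7 (0.49) and Tuft1 (0.32) were above 0 with overlapping groups. Dividing by Krt14 or by Cdh1, the E-cadherin gene, moves every gene up by more, since their log2 means differed by -0.77 each. By Krt14, Acp4 had groups without overlap on the lower side, as did 0.954% of all genes, and Fam83h and Slc10a7 on the higher side, as did 47.7%. By Cdh1, Acp4 was again without overlap on the lower side, as were 0.722% of all genes, and Fam83h, Slc10a7 and Tuft1 on the higher side, as were 65.3%. The shares of members on the higher side were thus below those of all genes on each of these scales.

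**Figure D4:**
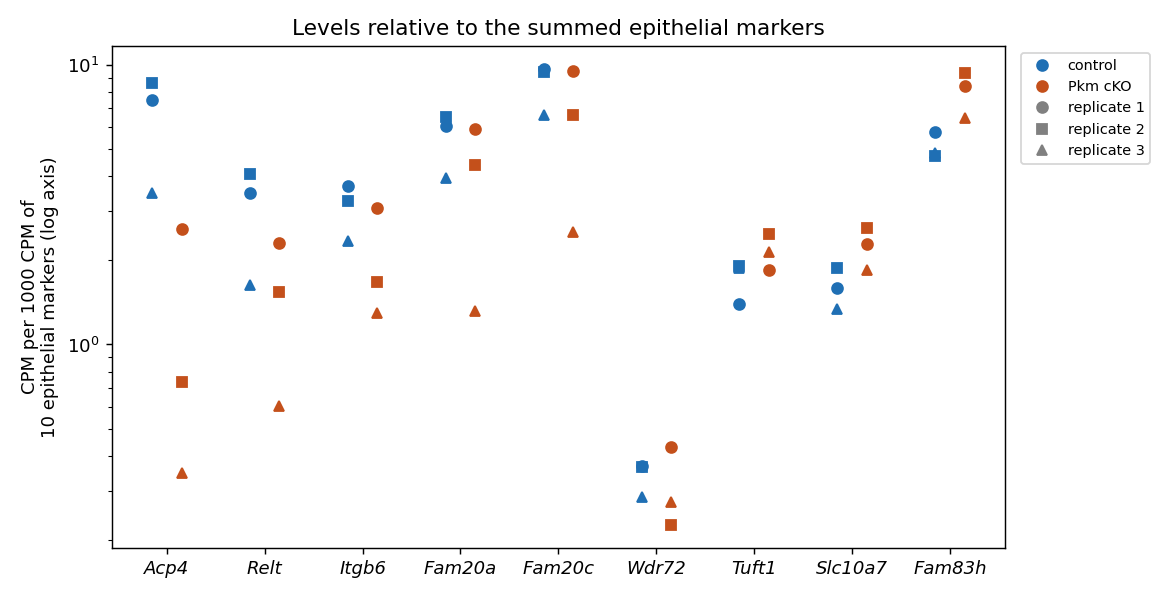
CPM of each gene per 1000 CPM of 10 summed epithelial markers (y axis, log scale) in control (blue) and Pkm cKO (orange) libraries, with marker shapes for replicate numbers. The controls lie above the cKO libraries for Acp4 and below them for Fam83h, and the groups overlap for the other 7 genes.

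Other genes of the same disease group, and the substrates of the kinase pair, were counted from lists. Of 22 further genes with known enamel defects, 19 could be tested, 16 of them below 0 in log2 fold change (median -0.46, against 0.01 over all tested genes). For 8 of the 19 the groups did not overlap on the lower side and for 1 on the higher side, against 12.2% and 11.2% of all tested genes. By edgeR 0 passed and 9 had an unadjusted p under 0.05, against 17.5% of all tested genes. The lowest p belonged to Rogdi, given above, and to Slc4a4, a bicarbonate transporter gene, which stood at 269, 184 and 195 CPM in the controls, against 116, 97.1 and 137 CPM in the cKO group (log2 fold change -0.89, SE 0.193, edgeR adjusted p 0.0757). Lamb3, which encodes a laminin chain of the basement membrane under epithelium, had a log2 fold change of -0.65 and groups that did not overlap.

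Of the 8 listed matrix and protease genes, 7 could be tested, and all 7 had groups that did not overlap on the lower side, against 12.2% of all tested genes, with a median log2 fold change of -2.45. That median was lower than the -0.87 of the 9 members, and the difference of the medians was not tested. Odam, made by ameloblasts and by the epithelium that joins gum to tooth, was the 1 gene past edgeR's threshold (log2 fold change -1.23, adjusted p 0.0312). Amtn, Klk4 and Enam had the next lowest p. Of these, Amtn (0.19 to 0.80 CPM) and Klk4 (0.10 to 2.87 CPM) had few reads. With any 1 control library left out, 0 genes of the whole table passed. Among 10 secreted proteins of mineralized tissue that FAM20C can phosphorylate, 9 could be tested, 7 of them below 0 and 2 above. The 5 without overlap on the lower side were Amelx, Ambn, Enam, Amtn and Odam. They had already been counted as matrix genes, so this list is largely the same evidence. Above 0 were the bone matrix genes Ibsp (0.86) and Spp1 (2.04), of which only Ibsp had groups that did not overlap. Of all tested genes, 12.2% lacked overlap on the lower side and 11.2% on the higher side. Of 8 further kinases of the secretory pathway, 4 were below 0 and 4 above, and 0 passed edgeR's test. At an unadjusted p under 0.05 stood 4 of the 8, against 17.5% of all tested genes. Fam20b, which phosphorylates a sugar in proteoglycans, stood at 106, 96.5 and 87.2 CPM in the controls, against 59.7, 66.7 and 65.9 CPM in the cKO group (log2 fold change -0.59, SE 0.144, edgeR adjusted p 0.0938). Its groups did not overlap. Fjx1 (0.73), Dipk1b (0.73) and Dipk2a (0.57) stood on the higher side.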

How the data were processed

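RNA from 6 samples of mouse dental epithelial cells was sequenced. Values are raw read counts, which the authors deposited as whole numbers in 1 table by gene. The submitters' processing notes name fastp, HISAT2 and the build mm39. For the counting program, strand setting, annotation and versions, nothing is given in the sources used here, so reads shared by overlapping or near-identical genes may be split or lost. Groups and replicate numbers came from the labels.

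Genes were kept by filterByExpr, libraries scaled by TMM, and groups compared over all 15930 tested genes with edgeR 4.0.16 (R 4.3.3), glmQLFit with robust estimation, two-sided, Benjamini-Hochberg adjusted p under 0.05. The SE was taken as the log2 fold change over the root of the F statistic, and intervals used the total degrees of freedom of the fit. The members, gene lists, named-gene rule (all 9 members, up to 4 genes of lowest p per list, 3 nearest profiles of at least 5 CPM, prior count 2) and alternatives were chosen with earlier results of these data known. A gene that this rule selects is not reported here. Acp3 was found under its older symbol, Acpp, through RefSeq's synonyms. Alternatives were other scaling and filters, leaving out each library, a replicate block, DESeq2 1.42.0, limma-voom (limma 3.58.1) and non-robust edgeR. The procedure was tested on simulated data. No libraries were duplicates (chi-square per gene at least 28.0). At 30588350 to 39415700 counts per library, every member had at least 108 reads in each, and the spread between libraries exceeded counting error.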

Additional observations from a re-analysis of the deposited data

How the results depend on the processing

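The 6 members with a log2 fold change under -0.5 stayed below 0 in all 84 values from 14 alternatives, of which 9 also passed the threshold. These 6 were picked by the same data, and the alternatives reuse the same libraries, so the 84 values are not independent support. Over all 9 members, 98 of 126 values were below 0, and 4 had a sign opposite to that of the main fit. The number of members called was 0 with edgeR, 3 with DESeq2 and 0 to 2 with 1 library left out (2 without Pkm cKO replicate 1). The members' median ran from -1.23 without Pkm cKO replicate 1 to -0.49 without Pkm cKO replicate 3. Among values with 1 library left out, Tuft1 turned to 0.01 without control replicate 3 and 0.10 without Pkm cKO replicate 1 (range -0.20 to 0.10), and Slc10a7 to -0.01 without control replicate 3 and -0.055 without Pkm cKO replicate 2 (range -0.055 to 0.23). Of all tested genes, 88 were called, against 55 with DESeq2 size factors, 518 without a filter beyond 1 read, 1128 by DESeq2, 2 by limma-voom, 2 by non-robust edgeR, and 0 to 640 with 1 library left out (0 without any 1 control, 640 without Pkm cKO replicate 1, 186 without replicate 2). The cause was not tested.

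With the replicate number as a block, 708 genes (4.44%) and 4 members were called: Relt (adjusted p 0.00458), Itgb6 (0.00900), Acp4 (0.0215) and Fam20c (0.0421). Deviations from the group means correlated at 0.235, 0.0150 and 0.215 for same-numbered libraries, against -0.278 to 0.0703 for the other pairs. The labels do not say whether same-numbered samples belong together, and these values do not settle it. The main fit used no block. Libraries 1 and 3 of each group correlated best with their own number, and number 2 did not. Divided by Cdh1 in place of the marker sum, 4 members had groups without overlap in place of 2, as the larger common shift moves all genes up. Of the 27 nearest profiles, 25 were the same with a minimum of 1 CPM. Wdr72, at 108 to 248 reads, was the member with the least depth.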

Other observations

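Of the other acid phosphatases, Acpp, the prostatic enzyme, stood on the same side as Acp4. It had 790, 669 and 558 CPM in the controls, against 525, 187 and 163 CPM in the cKO group, without overlap (log2 fold change -1.20, SE 0.474, edgeR adjusted p 0.270). Acp5, the tartrate-resistant enzyme of osteoclasts and macrophages, stood on the other side. It had 85.2, 42.2 and 51.9 CPM in the controls, against 363, 96.7 and 236 CPM in the cKO group, without overlap (log2 fold change 1.96, SE 0.534, edgeR adjusted p 0.159). The immune markers were higher in the same libraries, at 196, 117 and 201 CPM in cKO replicates 1 to 3, and their part in the level of Acp5 was not tested. Acp1 (-0.25), Acp6 (-0.24) and Acp2 (-0.05) had overlapping groups. By edgeR 0 of the 5 passed, and 2 had an unadjusted p under 0.05, against 17.5% of all tested genes.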
